A study of Arabidopsis thaliana with 9 samples.

Results

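The genes described here were 10 components of red-light and shade signalling in Arabidopsis thaliana, taken by locus from the 33602 loci in the deposited tables. They were the photoreceptor PHYB, the phytochrome-interacting factors PIF1, PIF3, PIF4, PIF5 and PIF7, the related proteins HFR1 and PIL1, and the light-regulated transcription factors ATHB2 and HY5. All 10 loci were present in every library. Of these, 9 had enough counts to be tested among 18216 genes, and PIL1 did not.

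Leaf RNA was sequenced from plants 4 to 5 weeks old in 9 libraries, with 3 libraries in each of 3 groups, which the labels call independent biological replicates. Wild-type plants were WT Col-0. Plants labelled Col-0 X ddm1 (F1) carried 1 mutant and 1 normal DDM1 allele, and plants labelled ddm1(-/-) 2nd generation carried no normal copy. DDM1 is a chromatin remodelling ATPase that keeps transposons methylated and silent, and the series set out to measure transposon expression. Which plant was the mother of the F1, the ddm1 allele, the time of day at harvest, and the growth and sequencing batches were not given in any source used here. Below, WT, F1 and ddm1 name the groups, and numbers after them name libraries.

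Phytochrome B is a red and far-red light receptor. In red light its active form enters the nucleus, binds PIF proteins, which are basic helix-loop-helix transcription factors, and promotes the degradation of most of them. PIFs bind G-box and PBE-box sequences and raise genes of elongation growth in shade or darkness, and transcription of PIF4 and PIF5 follows the circadian clock, whose evening complex represses both. HFR1 and PIL1 restrain PIF activity, while HY5, a bZIP factor that the COP1 and SPA ubiquitin ligase removes in darkness, promotes light-grown development.

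The upstream sequences of the 4 genes on which the results turn most are shown first, since PIFs, HY5 and clock proteins act through such DNA. They are the 250 bases before the annotated gene start, 5′ to 3′ on the gene's strand, read from the RefSeq genome TAIR10.1, with the G-box CACGTG in capitals. PHYB lies on the plus strand at chr2:8139756-8144461, with its upstream bases at chr2:8139506-8139755. PIF5 lies on the minus strand at chr3:21827905-21830837, with its upstream bases at chr3:21830838-21831087. PIF1 lies on the minus strand at chr2:8704024-8707009, with its upstream bases at chr2:8707010-8707259. PIF7 lies on the minus strand at chr5:24638491-24640765, with its upstream bases at chr5:24640766-24641015.
PHYB: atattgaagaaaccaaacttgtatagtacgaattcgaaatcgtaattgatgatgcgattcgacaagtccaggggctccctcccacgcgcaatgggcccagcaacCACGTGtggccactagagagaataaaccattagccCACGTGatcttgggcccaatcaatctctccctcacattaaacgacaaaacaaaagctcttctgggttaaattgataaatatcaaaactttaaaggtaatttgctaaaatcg
PIF5: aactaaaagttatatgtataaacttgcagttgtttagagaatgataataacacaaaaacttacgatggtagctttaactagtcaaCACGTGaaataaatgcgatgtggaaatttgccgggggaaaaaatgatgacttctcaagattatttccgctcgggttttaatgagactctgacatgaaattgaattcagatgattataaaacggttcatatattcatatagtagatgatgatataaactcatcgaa
PIF1: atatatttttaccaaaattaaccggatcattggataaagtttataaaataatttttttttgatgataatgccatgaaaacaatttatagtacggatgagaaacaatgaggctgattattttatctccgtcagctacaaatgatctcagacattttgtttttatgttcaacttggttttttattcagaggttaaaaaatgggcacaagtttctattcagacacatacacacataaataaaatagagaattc
PIF7: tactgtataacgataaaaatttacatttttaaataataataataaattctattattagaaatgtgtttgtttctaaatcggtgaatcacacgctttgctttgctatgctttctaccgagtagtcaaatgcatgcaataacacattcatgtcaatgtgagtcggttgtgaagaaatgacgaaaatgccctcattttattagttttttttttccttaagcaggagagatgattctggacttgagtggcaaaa

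PHYB held 2 G-boxes, which began 146 and 111 bases before the gene start, and PIF5 held 1, which began 165 bases before it. The upstream bases of PIF1 and PIF7 held none. Both strands were searched, and of 27443 genes 6.49% had a G-box in a window of 250 bases, against 2 of the 10 genes here. Within 1000 bases, HFR1 also had a G-box, at the far edge of the window, so that 3 of 10 held one, against 14.78% of all genes. The PBE-box CACATG lay within 250 bases of HY5 alone among the 10 genes, 138 bases before its start, in a window that overlaps the neighbouring gene AT5G11270, and 11.09% of all genes had it. Within 1000 bases it was present in PIF4, PIF7, HFR1 and HY5, 4 of 10 genes, against 37.71% of all genes. Of clock protein motifs, the evening element AAAATATCT was found once in the 1000-base windows, 820 bases before PIF7, and 7.24% of all genes held it. The CCA1-binding site AAAAATCT was found once, 391 bases before PIF3, against 21.15% of all genes. No other clock protein motif was searched, so sites of other clock proteins, the evening complex among them, may be present. These matches describe letters in a window and do not show binding.

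**Figure D1:**
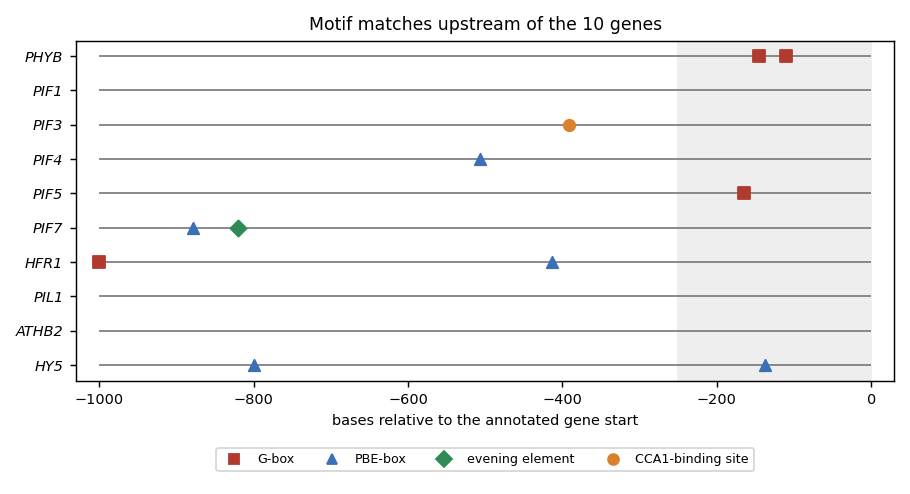
Motif matches in the 1000 bases upstream of each of the 10 genes, with distance to the annotated gene start in bases on the horizontal axis, 1 line per gene and 1 symbol per match. Within 250 bases of the start, PHYB has 2 G-boxes, PIF5 has 1 and HY5 has a PBE-box.

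Estimated counts totalled 15996806 to 22425699 per library, of which 5209179 to 7570493 were on nuclear loci other than rRNA. Values below are CPM, counts scaled to a common library total after TMM normalisation, for comparing libraries within a gene, or TPM, which also divides by target length, for comparing genes. A difference was called where edgeR's quasi-likelihood test gave a Benjamini-Hochberg adjusted p under 0.05 over all tested genes. The F1 libraries stood apart in markers chosen for tissue and time of day. Summed TPM of 5 leaf markers (RBCS1A, CA1, RCA, GLDP1, SHM1) was 5585 to 10150 in WT, 4103 to 7566 in ddm1 and 860 to 1566 in F1, where all 5 were called lower than in WT. All 5 seed markers and 3 of 5 root markers were at 0 in every library; the root sum was 3.6 to 10.6 TPM and the flower and pollen sum 0.373 to 6.02 TPM. Of 10 core clock genes, 8 were called in F1 against WT: LHY and CCA1, which peak at dawn, were lower, and TOC1, GI, PRR5, ELF3, ELF4 and LUX, which peak later in the day, were higher. Of all tested genes, 23.2% were called in F1 against WT, 9.66% being lower, and 7.37% in ddm1 against WT. LHY was 88.2, 88.4 and 98.6 CPM in WT, 71.9, 53.2 and 65.5 CPM in ddm1, and 0.636, 1.32 and 0.786 CPM in F1. In ddm1 against WT 1 of the 10 clock genes was called, CCA1 (46.8, 63.7 and 54.3 CPM in WT, 29.9, 30 and 32.5 CPM in ddm1, log2 -0.83, adjusted p = 0.0188, edgeR); it was lost without WT 2, WT 3, ddm1 1 or ddm1 2 (highest 0.0899) and with only ddm1 and WT fitted (0.0629). The ELF4 call in F1 was lost in 6 leave-outs, the RBCS1A call in 4 and the CA1 call in 2. The share of counts on organelle and rRNA loci together was 64.8% to 68.9% in WT, 66.2% to 68.0% in ddm1 and 70.6% to 72.8% in F1. These values move with the F1 group in every F1 result below, and their part in those results was not tested. Harvest time, batch and genotype cannot be told apart in this design. In such whole-leaf RNA, fewer cells of a type and less RNA per cell cannot be told apart either.

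On the TPM scale, PIF4 and PIF5 were the most abundant of the 10 transcripts in every library, and PIL1 was the scarcest by group mean. In WT, PIF5 averaged 51.9 ± 12.6 TPM (SD, n = 3) and PIF4 49.5 ± 4.79 TPM, which overlapped. PHYB followed at 9.75 ± 0.866 TPM, PIF1 at 7.59 ± 1.30, HFR1 at 6.62 ± 5.99, ATHB2 at 4.92 ± 4.54, PIF7 at 4.30 ± 0.636, PIF3 at 3.72 ± 0.955 and HY5 at 2.22 ± 0.553 TPM. Neighbours in this order overlapped in their WT libraries, except that PIF4 lay far above PHYB and HY5 far above PIL1. PIL1, at 0.253 ± 0.108 TPM, was near the detection limit.

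**Figure D2:**
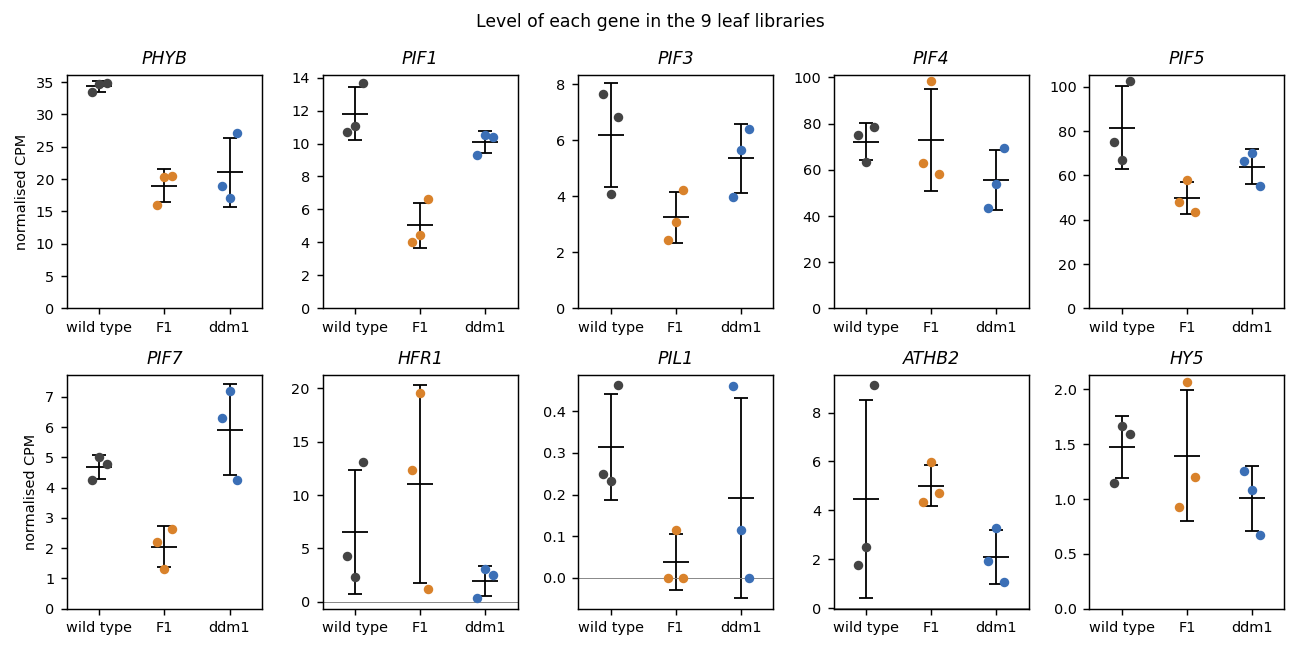
Level of each of the 10 genes in CPM by group, with 1 panel per gene and its own linear vertical axis; points are the 3 libraries of a group and bars show the mean and SD. PIF1, PIF5, PIF7, PHYB and, near the detection limit, PIL1 lie lower in all 3 F1 libraries than in any WT library. How many of all genes separate in this way was not counted. HFR1 spreads from 0.335 to 19.5 CPM.

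In F1 against WT, 3 of the 9 tested genes were called, PHYB, PIF1 and PIF7, all lower. Of all 16413 tested nuclear protein-coding genes, 10.6% were called lower and 19.8% in either direction; over all 18216 tested genes the shares were 9.66% and 23.2%. The count of 3 was thus above that share, but it rests on 9 genes and was given no test. At an unadjusted p under 0.05 the count was 5, and DESeq2 called 5, adding PIF3 and PIF5. The median log2 fold change of the 9 was -0.71, against 0.06 for nuclear protein-coding genes. In ddm1 against WT none of the 9 was called, where 1.3% of nuclear protein-coding genes and 7.37% of all tested genes were (6.87% higher and 0.5% lower). Of the 9, 1 had an unadjusted p under 0.05 and DESeq2 called 1, PHYB in both cases. The median over the 9 was -0.38, against -0.01 for nuclear protein-coding genes. In ddm1 against F1, PIF1 and PIF7 were called, both higher, against 7.96% of nuclear protein-coding genes and 10.3% of all tested genes called higher; 6.69% and 6.21% were called lower. At an unadjusted p under 0.05 the count was 3, and DESeq2 called 3, the third being HFR1, which was lower. Each group enters 2 of the comparisons, so the values set side by side below are not independent.

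**Figure D3:**
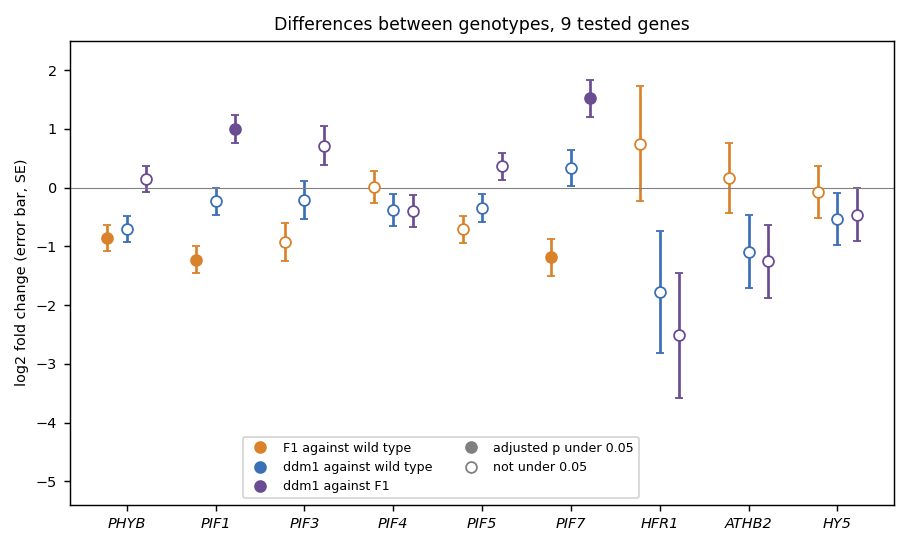
Log2 fold change of the 9 tested genes in each of the 3 comparisons, with bars of 1 SE and filled symbols for an adjusted p under 0.05. In F1 against WT the values of PIF1 (-1.23), PIF7 (-1.18) and PHYB (-0.86) are filled, and in ddm1 against WT none is.

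PHYB (AT2G18790), the red-light receptor, was 33.4, 34.8 and 34.9 CPM in WT, 16, 20.4 and 20.5 CPM in F1, and 19.0, 17.0 and 27.1 CPM in ddm1. Every F1 and ddm1 library lay below every WT library, and the F1 and ddm1 ranges overlapped. In F1 it was 1.81-fold lower than in WT (log2 fold change -0.86, SE 0.22, adjusted p = 0.0205, edgeR). That call was lost without WT 1 (adjusted p = 0.0541), F1 1 (0.0936) or F1 2 (0.0538). In ddm1 the log2 difference from WT was -0.71 (SE 0.22), which did not pass (adjusted p = 0.107, edgeR), while without ddm1 3, the highest of its group, it passed (-0.93, adjusted p = 0.0154), as it did with DESeq2 on all libraries (adjusted p = 0.0336). Between ddm1 and F1 the difference was 0.15 (SE 0.22, adjusted p = 0.673). Only 13 of its 31-base words (0.29%) occur in another locus, PHYD.

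PIF1 (AT2G20180), which holds back seed germination and greening in the dark, was 10.7, 11.1 and 13.7 CPM in WT, 4.05, 4.47 and 6.61 CPM in F1, and 9.31, 10.5 and 10.4 CPM in ddm1. The F1 libraries were the lowest 3 of the 9, and no 2 groups overlapped, though ddm1 lay just under WT. It was 2.34-fold lower in F1 than in WT (log2 -1.23, SE 0.24, adjusted p = 0.00604, edgeR), and this call was kept when any 1 of the 9 libraries was left out (highest adjusted p 0.0319) and in all 6 other settings tried. Against F1, ddm1 was 1.99-fold higher (log2 0.99, SE 0.24, adjusted p = 0.0228), a call lost without F1 1 (0.0966), F1 2 (0.0877) or ddm1 2 (0.0536). The ddm1 difference from WT was -0.23 (SE 0.23, adjusted p = 0.823). The antisense neighbour AT2G20170, which overlaps PIF1 by 334 bases, had 0 counts in every library.

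PIF7 (AT5G61270), a main factor in the shade response, was 4.24, 5.01 and 4.78 CPM in WT, 2.20, 1.32 and 2.64 CPM in F1, and 6.29, 7.19 and 4.25 CPM in ddm1. The 3 F1 libraries were below all others, and WT and ddm1 overlapped. It was 2.27-fold lower in F1 than in WT (log2 -1.18, SE 0.32, adjusted p = 0.0254, edgeR) and 2.87-fold higher in ddm1 than in F1 (log2 1.52, SE 0.32, adjusted p = 0.015). These are 23 to 150 counts a library, and the F1 call was lost without WT 1 (0.0529), WT 2 (0.0612), F1 1 (0.0738) or F1 2 (0.0817), the ddm1 call without F1 1 (0.0564). In ddm1 against WT the difference was 0.34 (SE 0.31, adjusted p = 0.79). AT5G61260 on the other strand overlaps PIF7 by 318 bases and shares 288 of its 31-base words (15.97%), against 1 or 2 words for any other locus, so that reads could be split between them where strand was not used. Adding the CPM of that neighbour gave 4.24, 5.38 and 5.04 in WT, 3.06, 2.23 and 3.28 in F1, and 6.37, 7.19 and 4.52 in ddm1, with F1 still below every other library.

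PIF3 (AT1G09530), the founding member of the family, was 7.64, 4.08 and 6.84 CPM in WT, 2.43, 3.09 and 4.21 CPM in F1, and 3.98, 5.65 and 6.41 CPM in ddm1. The highest F1 library lay above the lowest WT library, so the groups overlapped. The F1 difference from WT was -0.93 (SE 0.33, adjusted p = 0.0691, edgeR), past the threshold without WT 2 (-1.25, 0.0358) or F1 3 (-1.25, 0.0394), with DESeq2 (0.0302) and on the TPM scale with limma (0.038). In ddm1 the difference from WT was -0.21 (SE 0.32, adjusted p = 0.904), and ddm1 against F1 was 0.71 (SE 0.33, adjusted p = 0.166).

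PIF4 (AT2G43010), which drives elongation in warmth and shade, was 75.1, 63.2 and 78.4 CPM in WT, 62.8, 98.5 and 58.0 CPM in F1, and 43.5, 54.0 and 69.5 CPM in ddm1. F1 2 was the highest of the 9 libraries and ddm1 1 the lowest, and all 3 groups overlapped. No difference was detected: F1 against WT was 0.02 (SE 0.27, adjusted p = 0.974, edgeR), a value whose sign was negative in 5 of the 6 other settings, ddm1 against WT was -0.38 (SE 0.27, adjusted p = 0.705), and ddm1 against F1 was -0.39 (SE 0.27, adjusted p = 0.353).

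PIF5 (AT3G59060), the closest relative of PIF4, was 75.3, 66.9 and 103 CPM in WT, 48.1, 57.8 and 43.6 CPM in F1, and 66.6, 70.2 and 55.1 CPM in ddm1. All F1 libraries lay below all WT libraries, and ddm1 overlapped both. The F1 difference from WT was -0.71 (SE 0.24), just outside the threshold (adjusted p = 0.0547, edgeR), and it passed without WT 2 (-0.93, 0.0446) or ddm1 3 (-0.71, 0.0405), with DESeq2 (0.00433), on the TPM scale with limma (0.0189) and with only F1 and WT fitted (0.0492). In ddm1 the difference from WT was -0.35 (SE 0.23, adjusted p = 0.667), and from F1 it was 0.36 (SE 0.23, adjusted p = 0.317).

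The ratio of PIF4 to PIF5 on the TPM scale was 1.08, 1.02 and 0.826 in WT, 1.41, 1.84 and 1.44 in F1, and 0.706, 0.831 and 1.36 in ddm1. The F1 values were above all others, narrowly over ddm1 3. Summed TPM of the 5 PIF genes was 106.4, 105.7 and 139.1 in WT, 63.5, 81.4 and 71.6 in F1, and 84.5, 89.9 and 83.6 in ddm1. These 3 ranges were separate. On the CPM scale the groups did overlap, since the same sum was 173, 150.3 and 206.3 in WT, 119.5, 165.2 and 115 in F1, and 129.7, 147.6 and 145.7 in ddm1, with F1 2 above WT 2 and above every ddm1 library. PIF4 and PIF5 made up 85.9% to 87.3% of the TPM sum in WT, 88.0% to 94.6% in F1 and 83.0% to 85.2% in ddm1. These summaries were chosen after the values were known and were given no test.

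HFR1 (AT1G02340), an atypical helix-loop-helix protein that forms inactive pairs with PIFs, was the most variable of the tested genes. It was 4.24, 2.27 and 13.1 CPM in WT, 12.4, 19.5 and 1.2 CPM in F1, and 0.335, 3.03 and 2.5 CPM in ddm1, a 58.2-fold span. Libraries of 1 group thus lay at opposite ends, with F1 2 the highest of the 9 and F1 3 the second lowest. None of the differences passed edgeR's test: F1 against WT was 0.75 (SE 0.98, adjusted p = 0.616), ddm1 against WT -1.77 (SE 1.04, 0.588) and ddm1 against F1 -2.52 (SE 1.06, 0.134). Leaving out 1 library moved these values widely, F1 against WT from 0.05 without F1 2 to 1.67 without WT 3, ddm1 against WT from -2.28 without ddm1 2 to -0.75 without WT 3, and ddm1 against F1 from -2.96 without F1 3 to -1.82 without F1 2; none passed. With DESeq2 on all libraries the difference of ddm1 from F1 did pass (-2.44, adjusted p = 0.0483).

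ATHB2 (AT4G16780), a homeodomain-leucine zipper factor that rises within minutes of shade, was 1.75, 2.5 and 9.11 CPM in WT, 4.33, 5.96 and 4.72 CPM in F1, and 1.93, 3.25 and 1.08 CPM in ddm1. WT 3 held the highest value of the 9 for ATHB2, and it was also the highest WT library for HFR1, IAA29, HAT1 and HAT2. Among the other tested genes that PIFs raise, the highest WT library was WT 1 for HAT3, CKX5 and ST2A. For IAA19, BEE1 and ACS8 it was WT 2. The F1 and ddm1 libraries did not overlap for ATHB2, but their difference did not pass (-1.25, SE 0.62, adjusted p = 0.194, edgeR). The differences from WT were 0.16 (SE 0.60, adjusted p = 0.871) in F1 and -1.09 (SE 0.62, adjusted p = 0.561) in ddm1. Both rested on WT 3, without which they were 1.16 (adjusted p = 0.112) and -0.003 (adjusted p = 1). ATHB2 lies 33.0 kb from the nearest TE gene, AT4G16870, whose own level was lower in ddm1 than in WT (log2 -7.33, adjusted p = 0.000339).

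HY5 (AT5G11260) was scarce, at 1.15, 1.67 and 1.59 CPM in WT, 0.925, 2.06 and 1.2 CPM in F1, and 1.26, 1.08 and 0.675 CPM in ddm1, or 10 to 38 counts a library. The groups overlapped throughout, and the differences from WT were -0.08 (SE 0.44, adjusted p = 0.92, edgeR) in F1 and -0.54 (SE 0.45, adjusted p = 0.766) in ddm1, with -0.46 (SE 0.45, adjusted p = 0.514) between ddm1 and F1. No difference was detectable at this depth. PIL1 (AT2G46970), a shade-induced relative of the PIFs, had 5, 5 and 11 counts in WT, 0, 2 and 0 in F1 and 11, 2 and 0 in ddm1, too few to test.

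**Figure D4:**
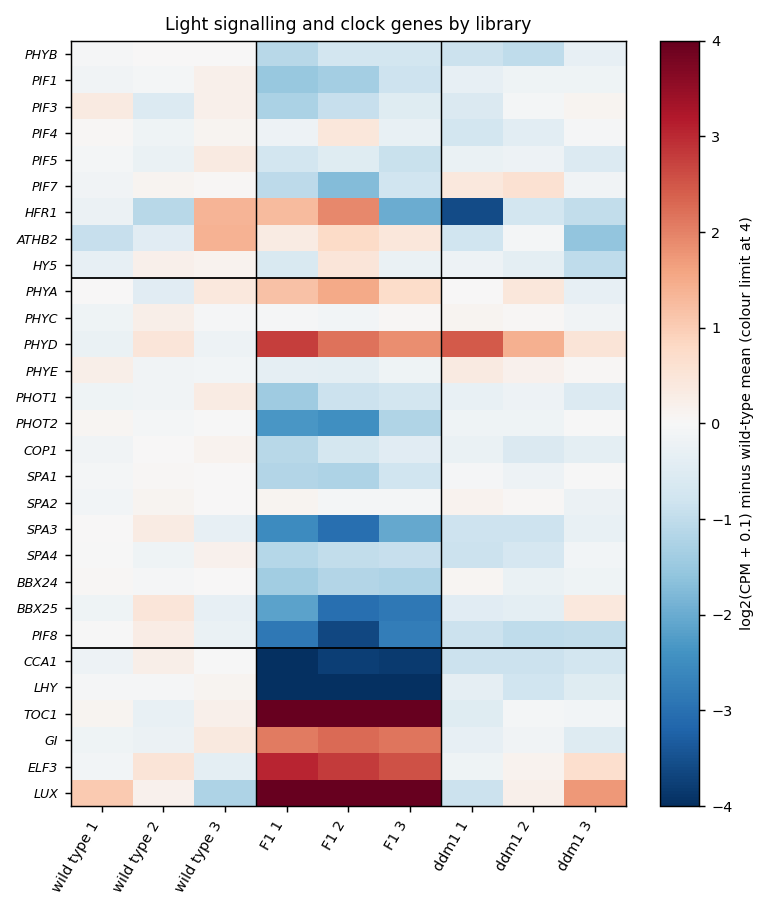
Log2(CPM + 0.1) of the 9 tested genes (top block), of further light signalling genes (middle) and of clock genes (bottom) in each library, minus the gene's mean over the WT libraries, with colour from blue (lower) to red (higher) limited at 4. PIF1, PIF7 and PHYB are blue in the 3 F1 columns, HFR1 changes colour within the F1 group, and the clock genes LHY and TOC1 reach the limit in F1.

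The members lay at varied distances from transposons. PHYB was 6.5 kb from a TE gene, which had too few counts to be tested, and the others were 33.0 to 640.0 kb from one; the median for 27444 protein-coding genes was 66.6 kb. The nearest TE gene to PIF1, AT2G20460 at 109.2 kb, was higher in ddm1 than in WT (log2 11.79, adjusted p = 1.09e-05), while PIF1 itself was not called there.

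Across the 9 libraries, the genes most like a member in pattern were sought among 9667 nuclear genes of at least 5 CPM, for the tested members whose highest library was at least 3 times the lowest. Likeness was the root mean square difference of centred log2 CPM, smaller being closer. Closest to PIF1, which itself varied by 0.574 (SD, log2), were AT5G17010 (0.125), CYSD1 (0.139) and CYP71A21 (0.14). Closest to PIF7 (SD 0.715) were AT5G25630 (0.196), RCP1 (0.213) and AT5G59770 (0.215), and to PIF3 (SD 0.509) CBL (0.214), AT2G42910 (0.231) and AT3G18500 (0.238). The closest to ATHB2 (SD 0.878) were AT1G21050 (0.326), AT4G02005 (0.411) and UGT85A5 (0.427), and to HY5 (SD 0.417) AT2G25050 (0.194), TTN8 (0.212) and PP2CA (0.217). The nearest to HFR1 (SD 1.66) were PP2-A13 (0.783), AT5G64190 (0.79) and AT3G48390 (0.793).

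Beyond the 10 genes, 83 further light signalling genes were listed, of which 66 were tested. In F1 against WT, 26 of the 66 were called, 3 higher and 23 lower, where 9.22% of nuclear protein-coding genes were called higher and 10.6% lower. In ddm1 against WT 3 were called, 1 higher and 2 lower, against 0.792% and 0.512% of nuclear protein-coding genes. In ddm1 against F1, 16 were called higher and 2 lower, against 7.96% and 6.69%. Without F1 1, the F1 count fell to 14 and the ddm1 against F1 count to 8; without F1 2 they were 15 and 9. Without WT 2 the F1 count was 17, and without ddm1 1 the ddm1 against F1 count was 12. The count in ddm1 against WT was 0 without WT 3, F1 1, ddm1 1 or ddm1 2, 1 without WT 1, and 5 without ddm1 3.

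Among 9 photoreceptors, 4 were called in F1 against WT, where 19.8% of nuclear protein-coding genes were called in either direction. PHYD, a close relative of PHYB, was 3.10, 5.19 and 3.19 CPM in WT, 25.9, 17.1 and 13.8 CPM in F1, and 20.9, 10.1 and 5.33 CPM in ddm1. It rose in F1 (log2 2.30, SE 0.49, adjusted p = 0.00978, edgeR) in every leave-out, whereas PHYB was lower; in ddm1 the difference of 1.67 (SE 0.48) did not pass (0.0829). PHYA, the far-red receptor, also rose in F1 (1.13, SE 0.32, adjusted p = 0.0312), a call lost without WT 1, WT 2, F1 1, F1 2, ddm1 1 or ddm1 2 (highest 0.145) and on the TPM scale with limma. The blue-light receptors PHOT1 (-1.0, adjusted p = 0.0231) and PHOT2 (-1.89, adjusted p = 0.0045) fell, the PHOT1 call being lost without WT 3, F1 1 or F1 2 (highest adjusted p 0.1). PHOT2 was 270, 239 and 251 CPM in WT, 50.1, 45.7 and 109 CPM in F1, and 227, 226 and 250 CPM in ddm1. On the TPM scale, means in WT, F1 and ddm1 were 74.7, 46.3 and 70.1 for CRY1, 20.0, 21.4 and 16.9 for CRY2, 6.74, 5.40 and 6.15 for PHYC, 7.49, 5.01 and 7.88 for PHYE, and 8.97, 10.9 and 7.88 for UVR8, none called in any comparison.

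Among 9 genes of the COP1 and SPA ubiquitin ligase and its partners, 4 were called lower in F1 and none higher. Of nuclear protein-coding genes, 10.6% were called lower and 9.22% higher there. The 4 were COP1 (-0.73, adjusted p = 0.0385, edgeR), SPA1 (-1.07, 0.00577), SPA3 (-2.52, 0.000449) and SPA4 (-1.03, 0.011). SPA3, which helps COP1 act on HY5 and HFR1, was 40.1, 50.0 and 31.6 CPM in WT, 6.88, 4.81 and 9.53 CPM in F1, and 22.4, 22.6 and 32.2 CPM in ddm1. The F1 libraries lay well below all others. The COP1 call was lost without any 1 of the WT libraries, F1 1 or F1 2 (highest adjusted p 0.146), and the SPA4 call without F1 1 (0.0543).

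Of 15 tested light transcription factors and regulators out of 18 listed, 3 were called in F1, all lower. Of nuclear protein-coding genes, 19.8% were called in either direction and 10.6% lower. The count was thus near the share called in either direction and above the share called lower, and it was given no test. BBX24 and BBX25, B-box proteins that oppose HY5, fell by 1.26 (adjusted p = 0.00192, edgeR) and 2.74 (adjusted p = 0.00114) on the log2 scale. BBX30, also a B-box gene, had 0 counts in all 3 F1 libraries, 32, 4 and 9 in WT and 18, 14 and 4 in ddm1. It passed the filter on low counts only through WT and ddm1, where it was higher. HYH, the closest relative of HY5, was 1.40, 1.21 and 1.05 CPM in WT and 0, 0.401 and 0.0925 CPM in F1, and did not pass (adjusted p = 0.0628). The BBX30 call (adjusted p = 0.0227) was lost without WT 1, F1 1 or F1 2 (highest 0.0579) and with only F1 and WT fitted.

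Among 16 PIF relatives and interactors, 11 were tested. PIF8, a further member of the PIF family, was 23.4, 29.0 and 19.8 CPM in WT, 3.18, 1.83 and 3.38 CPM in F1, and 13.0, 11.6 and 12.1 CPM in ddm1. The groups did not overlap, with F1 lowest and ddm1 between. It fell in F1 (-3.10, SE 0.27, adjusted p = 5.57e-05, edgeR) and in ddm1 (-0.98, SE 0.25, adjusted p = 0.0445), the latter lost without F1 1 or any 1 WT or ddm1 library (highest 0.175) and with no filter on low counts. Of the DELLA growth repressors, which bind PIFs, RGL1 rose in F1 (1.09, adjusted p = 0.0101; 0.054 without WT 2) and GAI rose in ddm1 (1.02, adjusted p = 0.035), a call lost in 7 of 9 leave-outs, all but those of WT 2 and F1 3 (highest 0.16), and also with only ddm1 and WT fitted and on the TPM scale with limma. RGA (32.6, 39.3 and 36.0 CPM in WT, F1 and ddm1) and BZR1 (19.5, 23.5 and 16.2 CPM) were not called.

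Among 16 genes that PIFs raise in shade, 9 were tested, and 2 were called in F1, both lower. Of nuclear protein-coding genes, 19.8% were called there in either direction and 10.6% lower. The count was near the first share and above the second, but it rests on 9 genes. The median log2 fold change of the 9 was -1.655 in F1 against WT, with 8 negative and 1 positive. In ddm1 against WT it was -1.21, with all 9 negative. The medians of nuclear protein-coding genes were 0.06 and -0.01. These counts and medians were given no test. IAA29, an auxin-response repressor, fell by 2.75 (adjusted p = 0.0478, edgeR) and BEE1, a growth-promoting helix-loop-helix factor, by 3.03 (adjusted p = 0.0278, edgeR). The BEE1 call was lost without WT 2 or F1 2 (highest 0.0934). BEE1 had 19, 48 and 27 counts in WT, 0, 3 and 7 in F1, and 21, 11 and 16 in ddm1. It thus passed the filter on low counts through WT and ddm1, where it was high. IAA29 was 1.10, 8.30 and 16.6 CPM in WT against 1.04, 1.32 and 1.48 CPM in F1, so WT 1 lay inside the F1 range, and the call was lost without WT 2, WT 3, ddm1 2 or any 1 of the F1 libraries (highest adjusted p 0.146), with no filter on low counts and on the TPM scale with limma. In ddm1 against WT none of the 9 was called by edgeR, 4 had an unadjusted p under 0.05, and DESeq2 called 1. HAT2, a homeodomain relative of ATHB2, was the most abundant of them at 12.2, 27.4 and 42.3 TPM in WT, 19.7, 14.5 and 7.35 TPM in F1, and 14.9, 12.5 and 4.99 TPM in ddm1. Its groups overlapped and it was not called (adjusted p = 0.423 in F1 and 0.367 in ddm1, edgeR).

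Of 13 tested genes that HY5 raises, out of 15 listed, 11 were called lower in F1 against WT and 9 higher in ddm1 against F1. The shares of nuclear protein-coding genes so called were 10.6% and 7.96%. The list's medians in these comparisons were -3.51 and 2.10. Of those 9, the calls of CHLH, ELIP2, GLK1, GLK2, PORC and PSY were each lost without F1 1 and again without F1 2. In all, ELIP2 lost its call in 7 of 9 leave-outs. GLK1, GLK2 and PORC lost theirs in 6 each, any 1 ddm1 library among them, and PSY also without ddm1 3. CHS, F3H and SIG5 kept theirs in all 9 leave-outs. GLK1, a factor for chloroplast development, was 49.7, 45.7 and 57.3 CPM in WT, 29.5, 32.7 and 46.6 CPM in F1, and 59.8, 58.7 and 76.1 CPM in ddm1. It was called in ddm1 against F1 alone (0.84, adjusted p = 0.0407), and that call was also lost with only those groups fitted (0.0714). So were the calls of GLK2, PORC and ELIP2 in that comparison, that of ELIP2 also without organelle and rRNA loci and on the TPM scale with limma. HY5 itself was not called in either. SIG5, a plastid sigma factor, was 66.0, 50.7 and 82.0 CPM in WT, 4.39, 5.67 and 3.15 CPM in F1, and 35.5, 45 and 38.9 CPM in ddm1 (F1 against WT -3.91, adjusted p = 2.22e-05, edgeR). CHS, the first enzyme of flavonoid synthesis, fell by 5.54 (adjusted p = 0.000232). The other 9 called, F3H, FLS1, ELIP1, ELIP2, PSY, CHLH, HEMA1, PORC and GLK2, had log2 changes from -4.96 to -0.92. FLS1, a flavonol synthase gene, had 26, 59 and 18 counts in WT, 1, 0 and 7 in F1, and 3, 2 and 1 in ddm1. It thus passed the filter on low counts through WT, the group where it was high. ELIP2 had 18, 10 and 4 counts in WT, 1, 0 and 0 in F1, and 11, 3 and 21 in ddm1. In F1, ELIP1 had 13, 3 and 7 counts, CHS 6, 4 and 14, and F3H 4, 7 and 21. ELIP2, ELIP1, CHS and F3H likewise passed that filter through WT and ddm1, where they were higher. In ddm1 against WT only FLS1 was called (-3.85, adjusted p = 0.0461), and that was lost without F1 1 or any 1 WT or ddm1 library (highest 0.181). Of the F1 calls, those of FLS1, HEMA1 and PORC were lost without WT 1, WT 2, F1 1 or F1 2, of PSY without F1 1 or F1 2, of ELIP1 without F1 2, of GLK2 without F1 1, and of ELIP2 in 6 leave-outs. The ELIP2 call was also lost without organelle and rRNA loci, with only F1 and WT fitted and on the TPM scale with limma, and the FLS1 call in ddm1 with no filter on low counts. The leaf markers and clock genes given above were lower or shifted in the same F1 libraries, and their part in these counts was not tested.

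**Figure D5:**
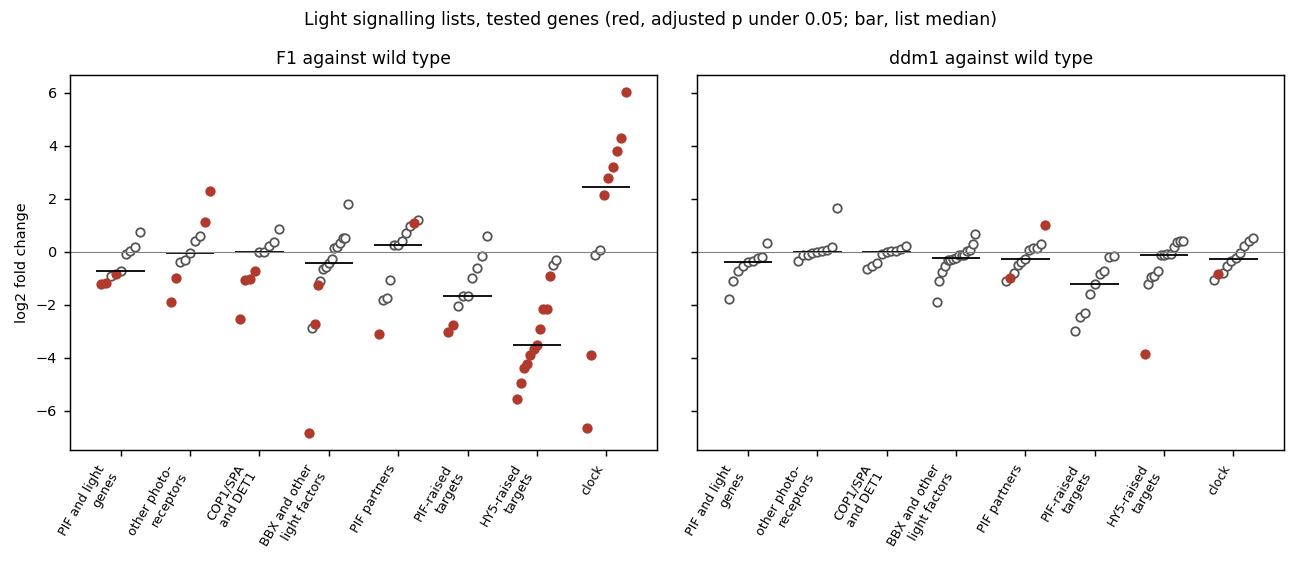
Log2 fold changes of the tested genes of each light signalling list in F1 against WT and ddm1 against WT, with 1 point per gene, red where the adjusted p is under 0.05, and a bar at each list's median; the clock genes stand beside them, and the lowest F1 point among light factors is BBX30, whose fitted value rests on 0 counts in F1. In F1 the median of genes that HY5 raises is -3.51, and in ddm1 it is -0.12.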

How the data were processed

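The libraries were directional, ribosomal RNA was removed, and single ends of 50 bp were read, per the labels' protocols. The authors deposited estimated counts and TPM per locus, in tables of kallisto's layout; version 0.46.0 and TAIR10 come from the submitters' processing notes. The index, fragment length and strand setting were not given in any source used here, so antisense neighbours may have shared reads. Estimated counts were rounded to whole numbers and tested with edgeR 4.0.16 in R 4.3.3 (quasi-likelihood F test, robust, TMM, filterByExpr), with all 9 libraries in 1 fit and Benjamini-Hochberg adjustment over 18216 genes. SE values came from the F statistic. The p-values weigh a difference between groups against the spread between these libraries. DESeq2 1.42.0, and limma 3.58.1 on log2(TPM + 0.5), were alternatives; the latter was chosen after seeing the data. Sequences and loci came from RefSeq TAIR10.1, whose nuclear coordinates equal those of TAIR10. A TE gene here is 1 of 3881 loci inferred to be transposon genes, since no transposon annotation was used. These were annotated as pseudogenes with an mRNA of an uncharacterized protein, and were not noted as the pseudogene of another gene. The members and lists were chosen with earlier results of these data known. All 10 members were described; from the lists, genes called in any comparison, all photoreceptors and some abundant uncalled genes were named. The script was tested on simulated data.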

Additional observations from a re-analysis of the deposited data

How the results depend on the processing

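PIF1 in F1 against WT kept its call in all alternatives and leave-outs run. Members called in ddm1 against WT numbered 0, and 1 with DESeq2; in F1 against WT 3, but 5 with DESeq2 and 5 with TPM in limma; in ddm1 against F1 2, but 1 with the replicate block and 3 with DESeq2 (HFR1 the third). Leaving out 1 library gave 0 to 1, 1 to 4 and 0 to 2. Of the other light signalling genes, 3 were called in ddm1 against WT, but 5 with DESeq2, 1 with no filter on low counts and 0 with the replicate block (0 to 5 in leave-outs); in ddm1 against F1 18, but 11 with the block (8 to 17), and in F1 against WT 14 to 29. Over all genes, ddm1 against F1 gave 3007, and 1341 with the block (939 to 3427); F1 against WT gave 2395 to 5214 and ddm1 against WT 1118 to 1580 in leave-outs. PIF4 in F1 against WT (0.02) was -0.051 with DESeq2, -0.059 with no filter, -0.076 with only both groups fitted, -0.002 with the replicate block and -0.30 on TPM; in leave-outs it was -0.254 to 0.122. Leave-outs also turned ATHB2 in F1 against WT (-0.219 to 1.159), HY5 in F1 against WT (-0.458 to 0.152) and PHYB in ddm1 against F1 (-0.076 to 0.363); none of these was called, and the cause was not tested. The TPM scale moved the median of nuclear protein-coding genes in F1 against WT from 0.06 to -0.18, and of 3712 calls 1363 were higher, against 2466 of 4226. Replicate numbers were not taken to pair libraries, since 3 of 9 same-number pairs correlated above 0.1 (-0.489 to 0.243). These correlations are of deviations from group means of 3 libraries. Libraries of different groups and numbers correlated up to 0.497 (WT 2 with ddm1 3), the source of which was not tested. With the block, PIF7 missed the threshold in F1 against WT (-1.19, adjusted p = 0.0662, edgeR) and in ddm1 against F1 (1.53, adjusted p = 0.051). The block also ended the calls of PHYA, PHOT1, COP1, BEE1, IAA29, FLS1, ELIP2, ELF4 and RBCS1A in F1 against WT, of PIF8, GAI, FLS1 and CCA1 in ddm1 against WT, and of PHYA, BBX30, ELIP2, GLK1, GLK2, PORC and PSY among light signalling genes in ddm1 against F1. The lowest library held 8 counts for HFR1, 16 for ATHB2, 10 for HY5, 23 for PIF7 and 0 for PIL1.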
